A study of Danio rerio with 12 samples.

Results

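The genes described here run the cell division cycle and copy DNA in zebrafish embryos in which the glucocorticoid receptor (GR) was targeted with a morpholino. A list of 41 gene symbols was matched to an Agilent array through the accession of each probe, and 37 of them were found among the 10915 named genes on the array. The symbols bub1, top2a, rfc4 and fen1 were not matched and are not analysed here. The symbol rrm2 is an older name shared by a pair of current genes, and of these rrm2l, whose probe was the brighter, stands for it. A gene with several probes, as 21 of the 37 had, stands here by its brightest probe, judged by the mean over the 12 arrays. All 37 probes were well above background on all 12 arrays, and none was saturated.

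The arrays hold RNA of whole embryos from adults bought from a wholesaler, with no strain named. Each embryo received 1 nL with 4.4 ng of an oligonucleotide at the one-cell stage, either the morpholino (MO), which is directed at the start of translation of the GR transcript, or a mispair control (MP), and pools were frozen at 24 or 36 hours post fertilization (hpf). The 4 groups held 3 arrays each, with pools of 25 embryos by the labels (20 to 25 by the methods), and the methods call the replicate pools independent samples. The morpholino is shown because it is the perturbation in every comparison below, with capitals at the letters that pair with the start codon.
GR morpholino: ctccagtcctccttgatcCATtttg
The labels print that same sequence for the control although they call it altered, and the study's methods print another control sequence, of a different length, so the control's sequence is not settled here. A morpholino of this kind blocks translation, so a transcript level gives no check of which embryos received it. It acts in the whole embryo, and its action on other transcripts was not measured.

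A dividing cell passes from G1 into S phase when cyclin D and cyclin E kinases release the E2F factors, which switch on genes for nucleotide synthesis, for the MCM helicase that opens the origins and for the enzymes of the replication fork. Cyclin A, cyclin B and Cdk1, with the Polo and Aurora kinases, then drive chromosome segregation in mitosis. In the zebrafish embryo in the second day of development, dividing progenitors of the brain, retina and fins express these genes strongly, while muscle and neurons leave the cycle as they differentiate. In RNA of whole embryos, fewer dividing cells and less RNA per dividing cell cannot be told apart.

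Values are log2 normalized expression, the log2 of a probe's background-corrected intensity over the median of its array across 19229 bright probes, and a change is a difference between group means on that scale. Values of different genes come from different probes and cannot be set against each other. At 24 hpf 80.4% to 82.5% of the probes were well above background, but at 36 hpf 72.8% to 80.4% were on the arrays labelled MP and 65.9% to 70.7% on those labelled MO. The dimmest array, MO replicate 2 at 36 hpf with a median probe intensity of 35.5, stood apart. Over genes well above background on all arrays, it correlated at 0.943 and 0.954 with the other MO arrays of its age. Those arrays correlated at 0.988 with each other. With the MP arrays of that age its values were 0.902 to 0.921, against 0.954 to 0.977 for the other MO arrays. With the MO arrays at 24 hpf they were 0.953 to 0.959, near the 0.947 to 0.955 of the other MO arrays. The counts and named genes at 36 hpf are also given without it. Arrays labelled MO are compared with arrays labelled MP throughout, and the fold changes printed by the study run the opposite way, as MP over MO by these labels. Either the labels or the printed ratios may be exchanged. If the labels are, every direction between MO and MP given here turns round. Each change was tested with limma, adjusted by Benjamini-Hochberg over all named genes tested in that comparison, and called at an adjusted p under 0.05.

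At 24 hpf the arrays labelled MO had lower transcript levels of some of the genes that start S phase and copy DNA and of a few mitotic genes. Of the 37 genes, 15 were lower and 0 were higher. Over all 10353 genes tested, 48.3% were called in the same comparison, with 23.9% lower and 24.4% higher. The 15 comprised 12 of the 23 genes of G1/S and replication (52.2%) and 3 of the 14 genes of mitosis (21.4%). The mitotic share was near the 23.9% of all genes that were lower. Of each kind 11 genes did not pass the test, and the difference between the replication and mitotic shares was not tested. The log2 change was below 0 for 29 of the 37, where it was for 49.3% of all genes. The median log2 change was -0.20 over the 37 genes and 0.01 over all genes, and it was -0.33 over the 23 replication genes and -0.14 over the 14 mitotic genes. The 3 values labelled MO lay below the 3 labelled MP, with no overlap, for 22 of the 37 genes (29.9% of all genes tested) and above them for 0 (29.8%). At an unadjusted p under 0.05 there were 18 genes, where 55.4% of all genes were. The heat map of the 37 genes on all arrays shows the block of low values in the MO arrays at 24 hpf.

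**Figure D1:**
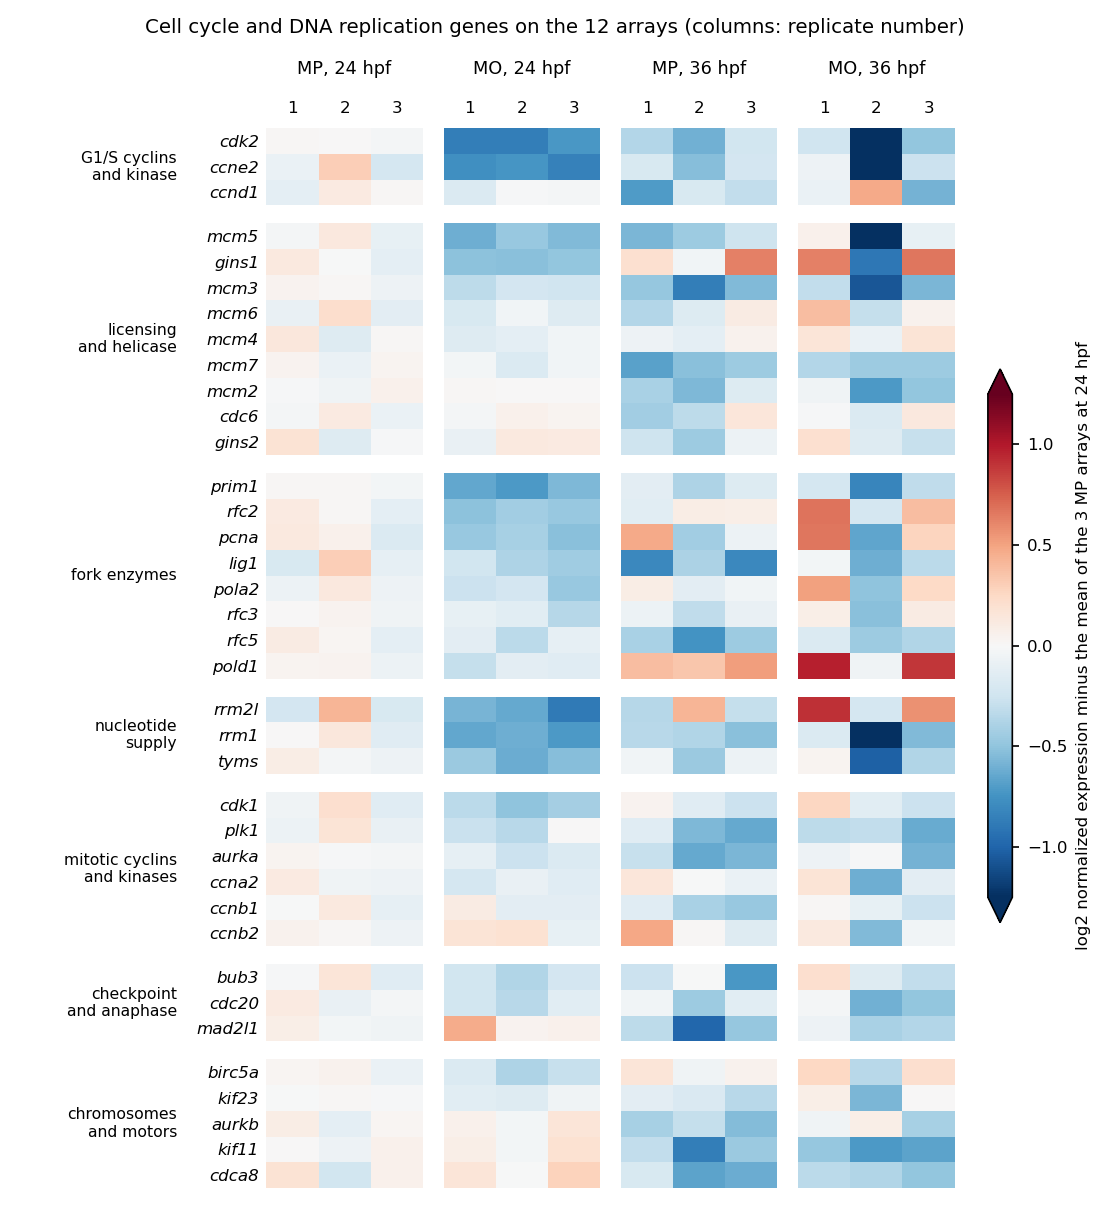
Log2 normalized expression of each of the 37 genes (rows, grouped by role) on each of the 12 arrays (columns, replicates 1 to 3 of each group), minus the gene's mean over the 3 MP arrays at 24 hpf, with blue below 0 and red above it. The upper 4 role groups are mostly blue in MO at 24 hpf, and MO replicate 2 at 36 hpf is the darkest column, with cdk2 at 0.87 against 2.93 and 2.69 on the other MO arrays of that age.

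The G1/S group held the largest change. Cyclin-dependent kinase 2 (cdk2), the partner of cyclin E at entry into S phase, read 2.32, 2.32 and 2.46 on the MO arrays at 24 hpf and 3.20, 3.19 and 3.17 on the MP arrays. All MO values lay below all MP values, by a gap several times the spread within either group. The log2 change was -0.82 (SE 0.079, limma adjusted p = 7.25e-05), a level 0.567 times that of MP. Cyclin E2 (ccne2), the cyclin of that kinase, fell as far on the log2 scale, from 0.90 ± 0.28 in MP to 0.12 ± 0.06 in MO (SD, n = 3 each, limma adjusted p = 0.00177), again with no overlap. Cyclin D1 (ccnd1), which starts the G1 phase response to growth signals, read 3.16, 3.33 and 3.32 in MO and 3.22, 3.46 and 3.35 in MP. Its groups overlapped, and its log2 change of -0.07 had a 95% interval from -0.28 to 0.14 (limma adjusted p = 0.548).

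All 3 genes of nucleotide supply were lower in MO at 24 hpf. Ribonucleotide reductase, which makes the deoxynucleotides for S phase, has a large subunit encoded by rrm1 and a small subunit encoded by rrm2l. Expression of rrm2l was 4.67, 4.61 and 4.36 in MO and 5.02, 5.67 and 5.04 in MP, where replicate 2 was the highest of the 6 arrays. The groups did not overlap, and the log2 change was -0.70 (SE 0.17, limma adjusted p = 0.00941). For rrm1 it was -0.66 (SE 0.092, limma adjusted p = 0.00049), a level 0.634 times that of MP. Thymidylate synthase (tyms), which makes thymidine nucleotides, read 1.91, 1.75 and 1.84 in MO and 2.47, 2.35 and 2.31 in MP. Its groups lay apart, with a log2 change of -0.54 (SE 0.087, limma adjusted p = 0.00112). The other gene that carries the older name rrm2 is rrm2b, whose human counterpart is the p53-induced small subunit, and it was higher in MO by 1.06 on the log2 scale (SE 0.13, limma adjusted p = 0.000214), the opposite direction to rrm2l. It was looked at because of the shared name.

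Of the 8 fork enzymes, 4 were lower at 24 hpf, and the log2 changes of all 8 were below 0, from -0.65 for prim1 to -0.19 for pold1. DNA primase subunit 1 (prim1), which lays the RNA primers of replication, read 2.54, 2.47 and 2.63 in MO and 3.20, 3.21 and 3.16 in MP. The groups were far apart, with a log2 change of -0.65 (SE 0.080, limma adjusted p = 0.000253). The other 3 probes of prim1 gave log2 changes of -0.62, -0.65 and -0.62. The sliding clamp (pcna), which holds the polymerases on the template and is a common marker of proliferating cells, read 2.26, 2.32 and 2.22 in MO and 2.86, 2.80 and 2.56 in MP. Its groups did not overlap, and its log2 change was -0.47 (SE 0.099, limma adjusted p = 0.00434), with -0.58 at its other probe. Clamp loader subunit rfc2 changed by -0.47 and the polymerase alpha subunit pola2 by -0.33, both called.

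The other 4 fork enzymes did not pass the test. Of these, 3 had all MO values below all MP values, as had 29.9% of all genes tested. DNA ligase 1 (lig1), which joins Okazaki fragments, read 3.96, 3.81 and 3.75 in MO and 3.995, 4.50 and 4.09 in MP. The highest MO value lay just below the lowest MP value, and the log2 change of -0.36 (SE 0.13) missed the threshold (limma adjusted p = 0.0531), while its other probe gave 0.04. The catalytic subunit of polymerase delta (pold1), the lagging strand polymerase, read 0.76, 0.92 and 0.90 in MO and 1.08, 1.09 and 0.98 in MP. The MO values were again the lower with no overlap, and the log2 change was -0.19, with a 95% interval from -0.40 to 0.01 (limma adjusted p = 0.111). The clamp loader subunits rfc3 and rfc5 had log2 changes of -0.20 and -0.19.

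The 9 licensing and helicase genes were split. Of the 6 subunits of the MCM2-7 helicase, mcm5 and mcm3 were lower and the other 4 did not pass the test. Expression of mcm5 was 5.12, 5.25 and 5.17 in MO and 5.70, 5.85 and 5.62 in MP. Its groups were well apart, with a log2 change of -0.54 (SE 0.085, limma adjusted p = 0.000956). A further mcm5 probe gave -0.42 and a dim one 0.05, so that the call was lost when the probe with the smallest change stood for the gene. Expression of mcm2 was 5.65, 5.64 and 5.64 in MO and 5.62, 5.58 and 5.70 in MP. These groups overlapped, and the 95% interval of its log2 change ran from -0.15 to 0.17, which leaves out a change of the size of that in mcm5. For mcm6 the MO values were 4.97, 5.12 and 5.004 and the MP values 5.08, 5.38 and 5.04, also with overlap, and the log2 change was -0.13 (SE 0.10, limma adjusted p = 0.32). Its dimmer probes gave 0.02, 0.16 and 0.205.

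The remaining MCM subunits had log2 changes of -0.27 for mcm3 (limma adjusted p = 0.0181), -0.11 for mcm4 (0.19 at its other probe) and -0.09 for mcm7. Of the GINS complex, which joins the helicase to the polymerases, gins1 was lower by 0.51 on the log2 scale (log2 change -0.51, SE 0.15, limma adjusted p = 0.0227) and gins2 had a change of 0.05. The gins1 values were low on every array, at -4.55 to -3.90 at 24 hpf, where an array's scaling median is 0. The loading factor cdc6, which brings the helicase to the origins, had a change of 0.03, with a 95% interval from -0.17 to 0.22.

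**Figure D2:**
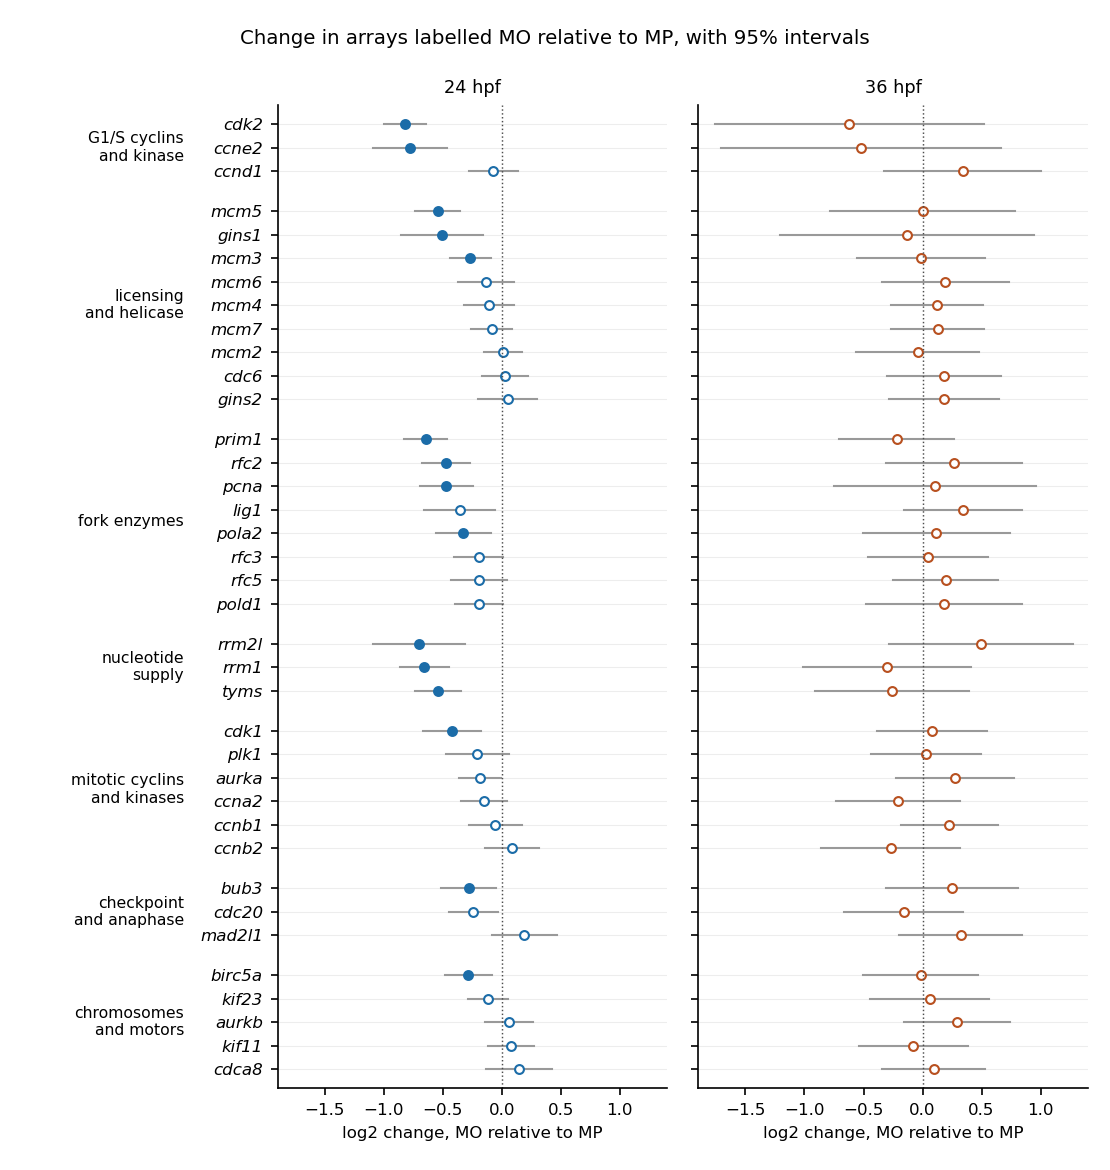
Log2 change of each of the 37 genes in the arrays labelled MO relative to MP at 24 hpf (left) and 36 hpf (right), with 95% intervals from limma and filled circles for an adjusted p under 0.05. At 24 hpf 15 circles are filled, all left of 0, and at 36 hpf none is, with intervals that are wider.

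Among the 6 mitotic cyclins and kinases, only cdk1 was called at 24 hpf. Cdk1, the kinase that drives entry into mitosis, read 3.08, 2.92 and 2.99 in MO and 3.37, 3.63 and 3.27 in MP. The groups did not overlap, and the log2 change was -0.42 (SE 0.11, limma adjusted p = 0.0109). When every probe was tested, the other cdk1 probe gave -0.30 (limma adjusted p = 0.0797). The cdk1 call was lost with the probe of smallest change and with the methods' t-test. The Cdk1 partner cyclin B1 (ccnb1) read 4.30, 4.07 and 4.06 in MO and 4.19, 4.32 and 4.08 in MP. These groups overlapped, and the 95% interval of the log2 change ran from -0.28 to 0.17. Aurora kinase A (aurka), which builds the spindle poles, read 3.30, 3.14 and 3.23 in MO and 3.44, 3.39 and 3.39 in MP. Its MO values were all lower, but the log2 change of -0.19 missed the threshold (limma adjusted p = 0.0799). The S and G2 cyclin ccna2 had a log2 change of -0.15, the Polo kinase plk1 -0.21 and the other B-type cyclin, ccnb2, 0.09.

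Of the checkpoint and anaphase genes, bub3 was called. It encodes a kinetochore protein of the spindle checkpoint and read 2.27, 2.12 and 2.27 in MO and 2.49, 2.67 and 2.35 in MP. The groups did not overlap, and the log2 change of -0.28 was near the threshold (limma adjusted p = 0.0474). The checkpoint protein gene mad2l1 read 3.03, 2.61 and 2.63 in MO and 2.65, 2.53 and 2.52 in MP. Its groups overlapped, and its log2 change of 0.19 (SE 0.12, limma adjusted p = 0.226) was the highest of the 37. The anaphase activator cdc20 had no overlap and a log2 change of -0.24 (limma adjusted p = 0.0579), while its dimmer probes gave -0.285 and 0.465.

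Of the 5 genes for the chromosomal passenger complex and mitotic motors, birc5a was called. It encodes survivin, a subunit of that complex, and read 2.44, 2.23 and 2.33 in MO and 2.64, 2.67 and 2.54 in MP. Its groups did not overlap, with a log2 change of -0.28 (SE 0.088, limma adjusted p = 0.0269). The kinase of the same complex, Aurora B (aurkb), read 4.21, 4.11 and 4.30 in MO and 4.24, 4.03 and 4.17 in MP. These groups overlapped, and the 95% interval ran from -0.14 to 0.27. The spindle motors kif11 and kif23 had log2 changes of 0.08 and -0.12. The brightest probe of cdca8, which encodes borealin of the same complex, gave 0.15, while its 2 dimmer probes gave -0.62 and -0.45, each past the threshold when every probe was tested, so cdca8 has no settled direction at 24 hpf.

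Each slide held 1 MO and 1 MP array of the same age, so the comparison could also be read within slides. On the 3 slides of 24 hpf, 29, 29 and 32 of the 37 genes were lower in MO, with median differences of -0.29, -0.09 and -0.27, where the medians over all genes well above background lay between -0.01 and 0.01. All 15 called genes were lower in MO on all 3 slides. This had to follow, since none of the 15 overlapped between the groups, and it adds no support. With the slide as a block 15 genes were called, 14 of them the same. With each array left out in turn 12 to 15 genes were called, and 10 of the 15 were called every time (cdk2, ccne2, cdk1, pcna, mcm5, rrm1, rrm2l, tyms, prim1 and rfc2). The shares of all genes called with the slide block or with an array left out are not given here. In a single fit of all 12 arrays, which shares 1 estimate of the spread with the 36 hpf arrays, only prim1 was called, and the median SE over the 37 genes was 0.172 in place of 0.0925. That fit called 21.3% of all genes, with 10.9% lower and 10.4% higher.

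Other cell cycle genes were counted from a list of 123, of which 94 were on the array. At 24 hpf 24 of the 94 were lower in MO (25.5%) and 9 were higher (9.57%), with a median log2 change of -0.15. The lower genes included the polymerase subunits pold2, pole and pole3, the origin recognition genes orc3, orc4 and orc5, the single strand binding genes rpa2 and rpa3, and the cell cycle transcription factors foxm1 and mybl2b. The higher genes were the replication licensing inhibitor gmnn, the phosphatase cdc25b, the cyclins ccna1, ccnd2b and ccnd3, and tk1, cdc14aa, fzr1a and racgap1. Of nucleotide synthesis genes on this list, tk1 was higher, and dut and dhfr were lower. The share that was lower was near that of all genes (23.9%), the share that was higher was below that of all genes (24.4%), and the median over all genes was 0.01.

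Inhibitors of the cyclin-dependent kinases were found for 5 of 9 symbols. The p27-type inhibitor cdkn1ba read 2.71, 2.50 and 2.80 in MO and 2.11, 1.78 and 2.01 in MP at 24 hpf. All its MO values were higher, and the log2 change was 0.70 (SE 0.12, limma adjusted p = 0.00129). The p57-type inhibitor cdkn1ca and the phosphatase cdkn3 were lower, with log2 changes of -0.34 and -0.26 (limma adjusted p = 0.0145 and 0.0349). Their relatives cdkn1bb and cdkn1cb had log2 changes of 0.21 and 0.29 and did not pass the test.

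Markers of neurons, muscle, heart, blood, skin, germ cells and neural progenitors were also measured at 24 hpf. Of 15 listed 13 were found, all well above background on all 12 arrays, and 6 were lower, 3 higher and 4 not called in MO, where 48.3% of all genes were called. Their summed normalized level, on the linear scale, was 533 to 552 in MO and 607 to 673 in MP. The largest part of each sum was the skin gene krt4, which was not called. It read 8.53 to 8.71 in MO and 8.34 to 8.57 in MP on the log2 scale. The sum therefore does not show the level of the markers as a set. The neuronal gene snap25a had a log2 change of -1.195 and the neuronal RNA binding gene elavl3 one of -0.84, and the fast muscle genes tnnt3b and mylpfa had -2.63 and -1.52. The heart gene myl7 and the globin gene hbae1.1 were the other lower markers, and the higher ones were the muscle regulator myog (0.95) and the germ cell genes ddx4 and dazl. At 36 hpf 2 markers were lower and 1 was higher, where 4.47% and 1.93% of all genes were. The summed level was 610 to 1070 in MO and 618 to 783 in MP. The 1070 was that of replicate 2, on which krt4 read 9.78. Without that replicate the MO sums were 610 and 678. The counts were then 3 markers lower and 1 higher, where 6.61% and 4.78% of all genes were. At 24 hpf the neural progenitor genes sox2, sox3 and sox19a, expressed in dividing cells, had log2 changes of 0.14, -0.05 and -0.24, none called, and a summed level of 38.1 to 39.9 in MO and 37.7 to 45.5 in MP. The part of these marker changes in the cell cycle result was not tested.

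At 36 hpf none of the 37 genes passed the test between the arrays labelled MO and MP. There were 0 calls by limma, where 6.40% of all 9888 genes tested were called, with 4.47% lower and 1.93% higher, and 0 of the 37 were under an unadjusted p of 0.05, where 21.3% of all genes were. The methods' t-test also called 0, but the share of all genes it called is not given here, so that count adds no support. The median log2 change was 0.09, against 0.03 over all genes, and 13 of the 37 changes were below 0, where 47.7% of all genes were. The standard errors were larger than at 24 hpf, with a median of 0.225 against 0.0925. Whether changes of the size seen at 24 hpf could be detected here was not tested. Among the genes called at 24 hpf, the limma interval at 36 hpf left out the 24 hpf change of rrm2l, rfc2 and cdk1. These intervals were -0.28 to 1.27, -0.31 to 0.84 and -0.39 to 0.55, against changes of -0.70, -0.47 and -0.42. For the other genes called at 24 hpf, the interval at 36 hpf included the 24 hpf change. Without MO replicate 2 there were still 0 calls, and 6 genes had an unadjusted p under 0.05 (25.5% of all genes), with a median log2 change of 0.20 and a median SE of 0.184, where 11.4% of all genes were called, with 6.61% lower and 4.78% higher.

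**Figure D3:**
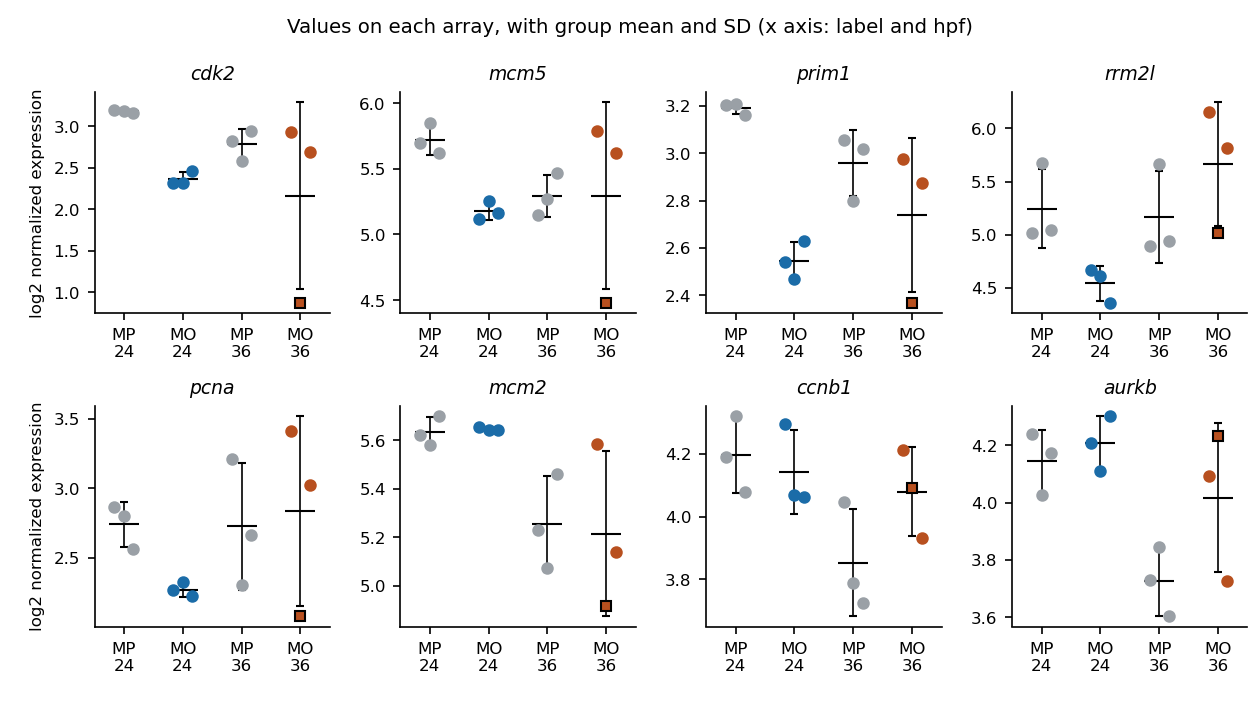
Log2 normalized expression of 8 genes on each array by group (MP grey, MO coloured), with the group mean and SD (n = 3) in black and MO replicate 2 at 36 hpf as a square. The vertical axes differ between genes and do not start at 0, and for cdk2, mcm5, prim1, pcna and mcm2 the square lies below every other array of 36 hpf.

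The median over the 37 genes, each set against its mean in MP at 24 hpf, was 0.02, -0.46 and -0.29 on the MO arrays of 36 hpf and -0.20, -0.39 and -0.24 on the MP arrays. The wide intervals at 36 hpf went with large differences between arrays of 1 group, as the plot of single arrays shows. For cdk2 the MO arrays at 36 hpf read 2.93, 0.87 and 2.69 and the MP arrays 2.82, 2.58 and 2.95. Replicate 2 lay far below the other 5 arrays, which overlapped, and the log2 change of -0.62 (SE 0.49, limma adjusted p = 0.512) became 0.03 without it. For mcm5 the MO arrays read 5.78, 4.48 and 5.62 and the MP arrays 5.15, 5.27 and 5.47. Here the other MO arrays lay above all MP arrays and replicate 2 below them, and the log2 change was 0.00 (SE 0.34), or 0.41 without replicate 2 (limma adjusted p = 0.169). For prim1 the MO arrays read 2.98, 2.37 and 2.88 and the MP arrays 3.06, 2.80 and 3.02, with overlap and a change of -0.22 (limma adjusted p = 0.593), or -0.03 without replicate 2. For pcna the MO arrays read 3.41, 2.08 and 3.02 and the MP arrays 3.21, 2.30 and 2.66, with a change of 0.11 (limma adjusted p = 0.902), or 0.49 without MO replicate 2. In both groups of pcna 1 array was low, replicate 2 of each.

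The genes with the largest change in each role group at 36 hpf were measured as follows. For rrm2l the MO arrays read 6.16, 5.02 and 5.81 and the MP arrays 4.89, 5.67 and 4.94, and for lig1 they read 4.16, 3.58 and 3.86 against 3.38, 3.79 and 3.39. Both pairs of groups overlapped, and the log2 changes were 0.50 (SE 0.34, limma adjusted p = 0.443) and 0.34 (SE 0.22, limma adjusted p = 0.403). Without MO replicate 2 they were 0.82 for rrm2l (95% interval 0.22 to 1.41, limma adjusted p = 0.0862) and 0.49 for lig1 (95% interval 0.06 to 0.92, limma adjusted p = 0.15), neither called. Over all arrays, the other probe gave a smaller change in each gene, 0.20 for rrm2l and 0.135 for lig1. For mcm6 the MO arrays read 5.55, 4.86 and 5.22 and the MP arrays 4.798, 4.99 and 5.26, with overlap and a log2 change of 0.19, or 0.37 without MO replicate 2. For aurka they read 3.35, 3.39 and 2.81 against 3.12, 2.77 and 2.83, for mad2l1 2.50, 2.16 and 2.20 against 2.23, 1.57 and 2.08, and for aurkb 4.09, 4.23 and 3.73 against 3.73, 3.84 and 3.60. In these 3 mitotic genes the MO means were the higher, but the groups overlapped, and the log2 changes were 0.27, 0.32 and 0.29 (limma adjusted p = 0.506, 0.452 and 0.427). With MO replicate 2 left out they were 0.17, 0.39 and 0.19.

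Other named genes also overlapped between the groups at 36 hpf. Log2 changes were 0.34 for ccnd1, -0.26 for tyms, 0.19 for pold1, -0.04 for mcm2, 0.08 for cdk1, 0.23 for ccnb1, 0.25 for bub3 and -0.015 for birc5a, with standard errors from 0.18 to 0.29. The values without MO replicate 2 were 0.07, 0.02, 0.52, 0.11, 0.13, 0.22, 0.28 and 0.18 in the same order, and the highest of these, that of pold1, had a limma adjusted p of 0.0645. The 3 MO arrays lay above the 3 MP arrays with no overlap for 1 of the 37 genes, mcm7 (14.1% of all genes), and below them for 0 (15.2%). Over the 2 MO arrays other than replicate 2, they lay above for 13 genes (23.2% of all genes). The slides of 36 hpf disagreed with each other. All 37 genes were higher in MO on the slide of MO replicate 1 and MP replicate 2, with a median difference of 0.43 (0.105 over all genes well above background), while 26 were lower on the slide of MO replicate 2 and MP replicate 1, with a median of -0.31, and 16 were lower on the remaining slide, with a median of 0.04.

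Whether the effect of the morpholino differed between the ages was tested as an interaction over all 12 arrays, in which a positive value means that MO stood higher against MP at 36 than at 24 hpf. No gene of the 37 was called, where 1.55% of all 10391 genes tested were (0.914% lower and 0.635% higher), and 4 had an unadjusted p under 0.05 (rrm2l, rfc2, lig1 and cdk1), where 15.2% of all genes did. The median interaction over the 37 genes was 0.27, against 0.00 over all genes, and 5 of the 37 values were below 0, where 49.8% of all genes were. The largest was that of rrm2l, at 1.195 (SE 0.41, limma adjusted p = 0.189). So the lower levels at 24 hpf were not shown to differ from the changes at 36 hpf.

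That answer rested on 1 array, MO replicate 2 at 36 hpf. Its median over the 37 genes, set against MP at 24 hpf, was the lowest of its age (-0.46). Leaving it out by itself raises the interaction of every gene in which it was the lowest MO array. Without MO replicate 2 at 36 hpf, 11 of the 37 genes had a positive interaction past the threshold, and 0 a negative one, where 8.11% of all genes were positive and 7.26% negative (15.4% in either direction). The median was 0.45, against 0.02 over all genes. All 11 belonged to G1/S and replication and none to mitosis. They were rrm2l (1.52), rfc2 (0.99), pcna (0.96), mcm5 (0.95), ccne2 (0.93), cdk2 (0.85), lig1 (0.84), pola2 (0.74), rrm1 (0.71), pold1 (0.71) and prim1 (0.61), with limma adjusted p from 0.00382 for rfc2 to 0.0458 for pcna. The mitotic genes birc5a (0.46, limma adjusted p = 0.052) and kif23 (0.38, limma adjusted p = 0.0751) lay near the threshold. The difference between replication and mitosis was not tested here either. Of the 11 genes, 9 were among the 15 that were lower in MO at 24 hpf, and lig1 and pold1 were not. The interaction takes the change at 24 hpf away from that at 36 hpf, so both lists rest on the same 24 hpf arrays. A change below 0 at 24 hpf by itself raises the interaction. The overlap of the lists is therefore partly built in and adds no support.

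The 36 hpf arrays were also compared with those of 24 hpf within each treatment. All 24 hpf arrays were on 3 slides scanned on 1 day and all 36 hpf arrays on 3 other slides scanned on another, so age, slide and scan day cannot be told apart. In the arrays labelled MP 11 of the 37 genes were lower at 36 hpf and 1 was higher, where 16.2% and 14.3% of all 10302 genes tested were (30.6% in either direction). The lower genes were lig1, mcm3, mad2l1, mcm7, kif11, rfc5, aurka, mcm5, aurkb, rrm1 and cdk2, with log2 changes from -0.67 to -0.40, and the higher one was pold1, at 0.42 (SE 0.11, limma adjusted p = 0.0249). The median log2 change was -0.26, against -0.06 over all genes, and 31 of the 37 changes were below 0 (55.5% of all genes). All values of 36 hpf lay below those of 24 hpf for 18 genes (27.6% of all genes) and above them for 1 (20.9%). The MP values of mcm7 fell from 6.66, 6.54 and 6.65 at 24 hpf to 5.94, 6.09 and 6.16 at 36 hpf. Those of lig1 went from 3.995, 4.50 and 4.09 to 3.38, 3.79 and 3.39. Neither gene overlapped between the ages (limma adjusted p = 0.00808 and 0.0188). When every probe was tested, dimmer probes of some genes not called here were lower and past the threshold. Their log2 changes were -1.04 for pcna, -0.84 for rfc2, -0.76 for mcm4, -0.50 for prim1, -0.45 for kif23 and -0.91, -0.72 and -0.88 for mcm6. For the 5 called genes with several probes, all 7 other probes had the sign of the probe used.

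These counts moved with single arrays and with scaling. Without MP replicate 1 at 24 hpf only mcm3, mcm7 and lig1 were called, where 17.3% of all genes were called, with 8.10% lower and 9.21% higher. Without MP replicate 2 of that age there were 6 calls, and without MP replicate 3 there were 4. The shares of all genes called in those fits are not given here. A loss of calls in these genes cannot be told there from a loss over all genes. Scaling to the dim positive control spots, which moved the median of all genes to -0.59, left 0.

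In the arrays labelled MO 2 of the 37 genes were lower at 36 hpf, the spindle motor kif11 (-0.70, SE 0.14, limma adjusted p = 0.0276) and cdca8 (-0.55, limma adjusted p = 0.0488), and 0 were higher, where 5.89% and 5.99% of all 10212 genes tested were (11.9% in either direction). Expression of kif11 was 4.09, 3.98 and 4.199 at 24 hpf and 3.52, 3.29 and 3.34 at 36 hpf, with no overlap. That of cdca8 was 3.18, 3.02 and 3.31 against 2.68, 2.65 and 2.53, also with no overlap, but its 2 dimmer probes gave log2 changes above 0. Without any 1 of the 3 MO arrays at 24 hpf, or without MO replicate 3 at 36 hpf, there were 0 calls. The shares of all genes called in those fits are not given here. A loss of these calls cannot be told there from a loss over all genes. With all arrays, the median log2 change was -0.04, against -0.08 over all genes.

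**Figure D4:**
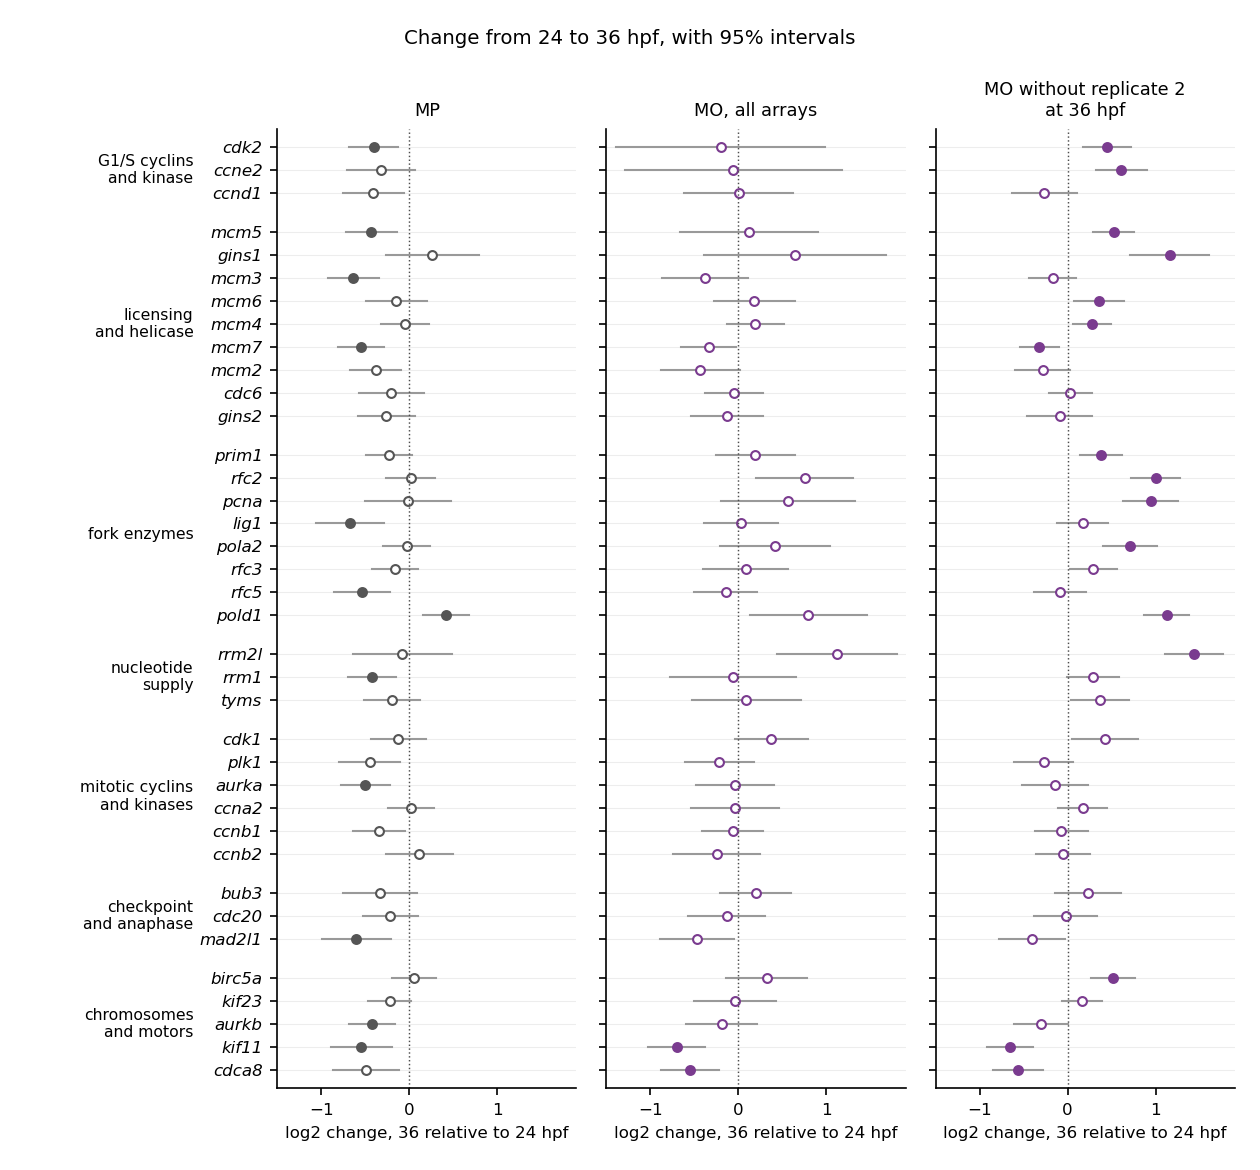
Log2 change of each of the 37 genes from 24 to 36 hpf in the arrays labelled MP (left), in those labelled MO (middle) and in those labelled MO without replicate 2 at 36 hpf (right), with 95% intervals from limma and filled circles for an adjusted p under 0.05. In MP 11 of 12 filled circles lie left of 0, and in the right panel 13 of 16 lie right of it, with rrm2l at 1.44.

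Without MO replicate 2 at 36 hpf the counts in MO were 3 lower and 13 higher, where 26.3% and 23.3% of all genes were (49.6% in either direction), and the median log2 change was 0.17 against -0.04 over all genes. The higher genes were rrm2l, gins1, pold1, rfc2, pcna, pola2, ccne2, mcm5, birc5a, cdk2, prim1, mcm6 and mcm4, with log2 changes from 0.27 for mcm4 to 1.44 for rrm2l, and the lower ones were kif11, cdca8 and mcm7. On the 2 MO arrays that remained, rrm2l read 6.16 and 5.81, against 4.67, 4.61 and 4.36 in MO at 24 hpf, and pold1 read 2.02 and 1.94, against 0.76, 0.92 and 0.90. Both genes lay above all MO values of 24 hpf. The 2 pcna probes gave opposite changes with age in MO over all arrays, 0.56 for the brighter and -0.38 for the other, so the direction of pcna with age is not settled. The same held for rfc2 (0.75 and -0.20), mcm4 (0.19 and -0.76) and mcm6 (0.18 against -0.11, -0.54 and -0.69). For mcm5 and prim1 the dimmer probes lay on both sides of 0. For rrm2l and birc5a the other probe had the sign of the probe used. The MP and MO changes with age share no array, and the interaction above is the test of their difference.

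Other probes of the same genes were measured for 21 of the 37. At 24 hpf, 17 of 29 such probes had the sign of the probe used, and for the called genes 11 of 12 did. The exception was the dim mcm5 probe. The p-values measure the spread between 3 pools a group, and the number of arrays limits their precision.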

How the data were processed

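RNA of whole zebrafish embryo pools was hybridized to one-color Agilent arrays, 3 in each of 4 groups, grouped by the sample labels. The authors deposited scanner output with a background-corrected intensity per probe, from the scanner software (version 10.5.1.1 of Agilent Feature Extraction), and a table of processed intensities. Per the methods, values below 0.05 were raised to it and chips were scaled to a set of control genes with raw values above 50. That set was read here as the 19229 probes above 50 on all 12 arrays. In the deposited table the columns of MP replicates 2 and 3 at 24 hpf are exchanged relative to the scanner files, which does not change any group.

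Intensities were raised to 0.05, spots marked as outliers were left out, values were divided by the array's own median across that set, and log2 was taken. Of 43603 probes, 15772 of 10915 named genes were used, named through accessions in RefSeq tables. Coordinates, promoters and protein sequences were not used here, so the planned search for promoter motifs was not run. A gene entered a test if the scanner software marked its probe as well above background on the 3 arrays of at least 1 group. Comparisons used limma 3.58.1 in R 4.3.3 (lmFit, eBayes with a trend) within the groups compared, with the interaction over all arrays, and other steps used Python 3.11.15, pandas 2.3.3, numpy 2.4.6 and matplotlib 3.10.9. On simulated arrays with 200 changed genes, the fit recovered 194 at 24 hpf, with 10 false calls among 10354 genes. At 36 hpf it recovered 149, with 6 false calls among 9890. The median fitted log2 change of the changed genes was 1.998 at 24 hpf and 1.979 at 36 hpf. The largest absolute changes of the main gene list between MO and MP were smaller, -0.82 and -0.62, both of cdk2. Recovery of changes of that size was not tested.

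The genes and lists were chosen with earlier results of these data known. Genes given with their values were, in each role group, those with the largest and smallest absolute change at 24 hpf and the largest at 36 hpf, and pcna. Alternatives were other scalings, normexp background correction with an offset of 50, floors, filters, probe choices, tests, blocks by replicate number or slide, the authors' own table, and the omission of each array in turn.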

Additional observations from a re-analysis of the deposited data

How the results depend on the processing

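The count of genes called at 24 hpf was 15 as reported, 12 to 15 with each array left out in turn, 13 with the replicate block and 1 when all 12 arrays were fitted together, and no other alternative moved it by over 1.5 times. At 36 hpf it stayed 0 under every alternative run, the replicate block included, and the interaction count stayed 0 under all but the omission of MO replicate 2 at 36 hpf, with a range of 0 to 11. The count of 12 for age in MP ranged from 3 to 12 with arrays left out, and was 0 with scaling to the positive control spots, 6 with limma without trend, 3 with the methods' t-test, 7 with the authors' table and 15 with the replicate block. The count of 2 for age in MO ranged from 0 to 16 with arrays left out. It was 1 with scaling to the 75th percentile, the mean of a gene's probes, the probe with the smallest change, limma without trend and the methods' t-test, 6 in a single fit of all 12 arrays, 0 with the replicate block and 33, all lower, with scaling to the positive control spots. Those spots were dim, with median intensities between 1.95 and 5.16 where those of the scaling probes lay between 340 and 1744, and that scaling moved the median log2 change of all genes to -1.145 at 36 hpf and -1.689 for age in MO. Arrays with the same number did not deviate together (r of -0.256 to 0.152 between MO and MP), so the numbers are not taken as pairs. A slide block was not possible for the age comparisons, and the methods' t-test was not run for the interaction. Apart from those printed above, the shares of all genes called under these alternatives are not given here. Where a share is missing, a moved count cannot be told from a move over all genes.

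At 24 hpf, the log2 changes of named genes that turned were those of mcm2 (-0.001 with the 75th percentile, -0.078 with positive control spots, -0.108 with normexp and -0.015 to 0.044 with arrays left out), aurkb (-0.027 with positive control spots), ccnb1 (-0.132 to 0.007 with arrays left out), ccnd1 and mcm6 (0.037 and 0.063 with the mean of probes), and mcm6, lig1 and mcm5 (0.019, 0.04 and 0.046 with the probe of smallest change). Of these only mcm5 had been called. At 36 hpf, where no gene was called, scaling to the positive control spots gave -0.949 for ccnb1, -0.835 for ccnd1, -1.096 for cdk1, -1.066 for pcna, -1.175 for mcm5, -0.981 for mcm6, -0.901 for aurka, -0.883 for aurkb, -0.928 for bub3, -0.853 for mad2l1, -0.681 for rrm2l, -0.99 for pold1 and -0.83 for lig1. The change of mcm5, near 0, was -0.02 with quantile normalization, -0.154 with normexp, -0.001 with outlier spots kept and -0.026 with the authors' table, and that of mcm2 was 0.042 with normexp. With arrays left out, the changes at 36 hpf ran from -0.08 to 0.191 for cdk1, -1.003 to 0.029 for cdk2, -0.177 to 0.489 for pcna, -0.226 to 0.107 for mcm2, -0.244 to 0.409 for mcm5, -0.125 to 0.18 for birc5a and -0.503 to 0.022 for tyms. The cause of these moves was not tested.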

Other observations

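With age, the p27-type inhibitor cdkn1bb, a brake on cyclin-dependent kinases, was higher at 36 than at 24 hpf in both treatments. It read 1.81, 1.85 and 2.03 in MP at 24 hpf and 3.13, 3.28 and 3.21 at 36 hpf, a log2 change of 1.31 (limma adjusted p = 0.000144), and in MO the log2 change was 0.85 (limma adjusted p = 0.0165), or 0.79 without MO replicate 2 at 36 hpf. The values of the ages did not overlap in either treatment, and the difference between the treatments did not pass the test (interaction -0.46, limma adjusted p = 0.193) but did without that replicate (-0.52, limma adjusted p = 0.0307). It was singled out after its values were seen. Of the longer list of other cell cycle genes, 19 of 93 tested were lower and 4 were higher at 36 hpf in MP, where 16.2% and 14.3% of all genes were, with a median log2 change of -0.21. In MO 1 of 94 was lower and 3 were higher, where 5.89% and 5.99% of all genes were. Without MO replicate 2 at 36 hpf these became 13 and 25 of 93, where 26.3% and 23.3% of all genes were. Age, slide and scan day cannot be told apart in the age comparisons.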
